A study of Mus musculus with 28 samples.

Results

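miR-103-3p (mmu-mir-103-3p in the tables) and miR-107-3p (mmu-mir-107-3p) are a pair of near-identical miRNAs whose hairpins lie in introns of the pantothenate kinase genes Pank1, Pank2 and Pank3. These 2 miRNAs, chosen by name among the 607 miRNAs listed in the data, were followed in alveolar macrophages (AM) of mice after filtered air (FA) or ozone (O3). Co-ex mice are humanized transgenic (hTG) animals with both human surfactant protein A variants, SP-A1 and SP-A2 (6A2/1A0), made on the C57BL/6J SP-A knockout background, and the KO mice lack SP-A. Both genotypes therefore lack the mouse protein, and no wild type mice were included. The mice were 12 weeks old, the females were synchronized for the estrous cycle, exposure lasted 3 h, and AM were collected from lavage fluid after 4 h of recovery. The 28 small RNA libraries fall into 8 groups by genotype, sex and exposure, and a co-ex group holds 4 libraries and a KO group 3. By the methods 4 mice of a group were used, and the libraries of a group were taken as separate mice.

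Pantothenate kinases carry out the first step in the synthesis of coenzyme A, the carrier of acyl groups in fatty acid and energy metabolism. A miRNA guides a silencing complex to messenger RNAs mainly through its seed, the short stretch near its 5′ end, and represses them. miR-103 and miR-107 have been linked to lipid and insulin metabolism, to the cell cycle and to repression of Dicer, the enzyme that processes miRNA precursors, and they are broadly expressed.

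Both mature miRNAs are shown because the finding rests on how little they differ. The sequences are those of RefSeq (GRCm38.p6), 5′ to 3′, with the seed, bases 2 to 8, in capitals.
mmu-mir-103-3p: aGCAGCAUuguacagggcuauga
mmu-mir-107-3p: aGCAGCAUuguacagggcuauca

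The pair shared 22 of 23 bases. The only difference is G22C, with the base of miR-103-3p first and positions counted from 1 at the 5′ end, so the first 21 bases are the same. The seed GCAGCAU was found in 0 of the other mature mouse miRNAs of RefSeq, which lists 1679 in all. How the authors' counting assigned a read that ends before base 22 is not given in the sources used here. The split of reads between these 2 miRNAs is therefore uncertain, and their sum was tested as well.

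The hairpins are printed with the mature 3p strand in capitals, because miR-103-3p has 2 of them with the same mature strand and a read cannot tell them apart.
Mir103-1: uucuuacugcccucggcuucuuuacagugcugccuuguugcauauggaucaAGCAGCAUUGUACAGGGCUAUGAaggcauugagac
Mir103-2: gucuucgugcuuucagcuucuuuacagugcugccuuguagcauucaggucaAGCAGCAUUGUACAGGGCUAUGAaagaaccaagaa
Mir107: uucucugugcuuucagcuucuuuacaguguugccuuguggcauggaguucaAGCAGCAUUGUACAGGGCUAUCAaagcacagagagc

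In GRCm38.p6, Mir103-1 lies at chr11:35782396-35782481 on the plus strand, in intron 5 of the 1 Pank3 transcript of GENCODE M21 that spans it. Mir103-2 lies at chr2:131288052-131288137 on the plus strand, intronic in 7 of 7 spanning transcripts of Pank2. Mir107 lies at chr19:34820687-34820773 on the minus strand, intronic in 3 of 3 spanning transcripts of Pank1. All 3 hairpins lie on the strand of their host gene. The mature strand covers bases 52 to 74 of each hairpin. Of the 4 names searched for the 5p strands of these hairpins, 0 were listed in any of the tables.

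The values are read counts divided by a size factor of the library, in 4 tables that the authors normalized separately, one for each genotype and sex. Both miRNAs stand in each table, among 368 miRNAs in co-ex females, 412 in co-ex males, 403 in KO females and 565 in KO males. The libraries held 41542 to 2082034 reads on miRNAs (median 490152), and 3 reads, taken as the detection floor, correspond to 1.04 to 12.9 normalized units. These limits cover counting error only, because PCR copies were not told apart. miRNAs of lists named for other cell types were present beside those of the myeloid list. In KO females the epithelial list (11 miRNAs, among them the miR-200 family) was summed in RPM (reads per 1000000 miRNA reads of a library). It ran from 1685 to 4627 RPM after FA and from 21076 to 36703 RPM after O3. Of its 10 tested miRNAs 8 rose with a limma adjusted p under 0.1, where 13.2% of 319 miRNAs passed. KO male FA replicate 3 stood apart. It had 45245 RPM on the myeloid list against 246825 and 313566 in the other FA libraries of its table. On the epithelial list it had 28327 RPM against 2246 and 2727. In KO males the myeloid list held miR-21a-5p at 31497 to 211919 RPM and miR-146b-5p at 2740 to 90506 RPM, against 1705 to 5989 RPM for miR-223-3p. The myeloid sum thus follows its most abundant members more than miR-223-3p. KO female O3 replicate 3 stood apart in the mesenchymal and muscle list, at 90293 RPM against 978 and 2899. Co-ex female FA replicate 3 stood apart in the red cell list, at 137372 RPM against 12810 to 22035. In KO mice 3 FA libraries, female replicates 2 and 3 and male replicate 3, carry later library codes than the rest, while all KO O3 libraries carry the earlier ones, so library series and exposure are partly confounded there. What the codes stand for is not stated. Fewer cells of a type and less RNA per cell cannot be told apart in such bulk samples.

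miR-103-3p was among the abundant miRNAs of AM in all 28 libraries, and miR-107-3p was far below it. By normalized value miR-103-3p ranked between place 13 and place 39 of its table, and miR-107-3p between place 68 and place 225. Both have 23 bases, but how reads that end before base 22 were assigned is unknown. As assigned, miR-107-3p made up 1.23% to 12.4% of the reads of the pair, and miR-103-3p had the larger count in every library.

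In co-ex females, no change after O3 was detected for either miRNA. The normalized values of miR-103-3p were 1093, 2071, 1442 and 1192 after FA, and 885, 1403, 1382 and 1082 after O3. Those of miR-107-3p were 53.9, 84.4, 21.0 and 61.3 after FA, and 125, 89.4, 20.1 and 76.1 after O3. The ranges of FA and O3 overlapped for both, and replicate 3 was the lowest for miR-107-3p in each exposure. On log2(value + 1), the O3 minus FA difference was -0.27 (SE 0.37, limma adjusted p = 0.891) for miR-103-3p. It was 0.38 (SE 0.68, adjusted p = 0.913) for miR-107-3p. Among the miRNAs tested here 0.369% of 271 passed an adjusted p of 0.1, and the red cell list ran from 12810 to 137372 RPM after FA and from 2929 to 4284 RPM after O3 (1 of 3 tested fell). Its part in the result was not tested. Without FA replicate 3, highest in that list, the differences were -0.25 for miR-103-3p (adjusted p = 0.98) and -0.017 for miR-107-3p (adjusted p = 0.99).

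In co-ex males the values also overlapped between exposures. miR-103-3p had normalized values of 7434, 6757, 6880 and 4828 after FA, and of 5762, 4002, 7180 and 4944 after O3. miR-107-3p had 269, 268, 278 and 213 after FA, and 167, 119, 348 and 243 after O3. The O3 libraries were more spread than the FA libraries for both, with replicate 2 lowest and replicate 3 highest in each case. The differences were -0.26 (SE 0.33) and -0.34 (SE 0.44) on the log2 scale, both with a limma adjusted p of 0.944. O3 replicate 2 stood apart in the marker lists, at 39654 RPM on the epithelial list against 3962 to 11761 and at 99259 RPM on the myeloid list against 179879 to 187358. Without it the differences were -0.12 and -0.081 (both adjusted p = 0.997). Of 312 miRNAs tested here 0% passed (11 at an unadjusted p under 0.05, and 0 by edgeR or DESeq2).

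In KO females the 3 O3 libraries were below the 3 FA libraries for miR-103-3p. Its normalized values were 4451, 4691 and 4677 after FA, and 4251, 2761 and 3101 after O3, so that O3 replicate 1 was close to the FA range. Among the libraries with the earlier codes FA had replicate 1 alone, at 4451, which was above the 3 O3 values. In 12.2% of the 319 miRNAs of this table every O3 library was below every FA library, so such a separation was not rare. The log2 difference was -0.47 (SE 0.24, 95% CI -1.02 to 0.07), with a limma adjusted p of 0.262 and an unadjusted p of 0.0798, in a table where 13.2% of miRNAs passed. With libraries scaled to their totals it was -0.28 (adjusted p = 0.543). In RPM the groups overlapped, with 7863, 7877 and 8995 after FA against 8443, 5771 and 6328 after O3. The epithelial list rose in the same table (8 of 10 tested miRNAs). The myeloid list ran from 176808 to 194639 RPM after FA and from 139431 to 177079 after O3. These ranges overlapped narrowly, and 0 of 7 tested myeloid miRNAs passed. Their part in the difference was not tested.

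For miR-107-3p in KO females the normalized values were 128, 110 and 175 after FA, and 88.3, 34.5 and 158 after O3. The groups overlapped, and the lowest value rested on 8 reads. The log2 difference was -0.77 (SE 0.68, limma adjusted p = 0.564). Without O3 replicate 3, the library with the high mesenchymal and muscle list, it was -1.27 (adjusted p = 0.411), and without O3 replicate 2, the library with 8 reads, it was -0.19 (adjusted p = 0.915). The difference of miR-103-3p was -0.43 (adjusted p = 0.486) and -0.34 (adjusted p = 0.536) in the same fits.

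In KO males miR-103-3p had normalized values of 14420, 13592 and 10117 after FA, and of 10113, 10194 and 8584 after O3. FA replicate 3, the library that stood apart in its marker lists and the one with a later code, lay within the O3 range while the other FA libraries lay above it. The log2 difference was -0.39 (SE 0.29, limma adjusted p = 0.939), and without FA replicate 3 it was -0.54 (adjusted p = 0.135). With libraries scaled to their totals it was -0.14 (adjusted p = 0.985). The epithelial list stood at 21662.5 to 28074 RPM after O3, against 2246, 2727 and 28327 RPM in FA replicates 1, 2 and 3. Of its 11 tested miRNAs 0 passed by limma. The myeloid list ran from 45245 to 313566 RPM after FA and from 121915 to 222778 RPM after O3. Their part in the difference of miR-103-3p was not tested. miR-107-3p had 354, 305 and 307 after FA, and 306, 356 and 383 after O3, a log2 difference of 0.11 (SE 0.38, adjusted p = 0.967). Of 440 miRNAs tested here 0.909% passed.

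**Figure D1:**
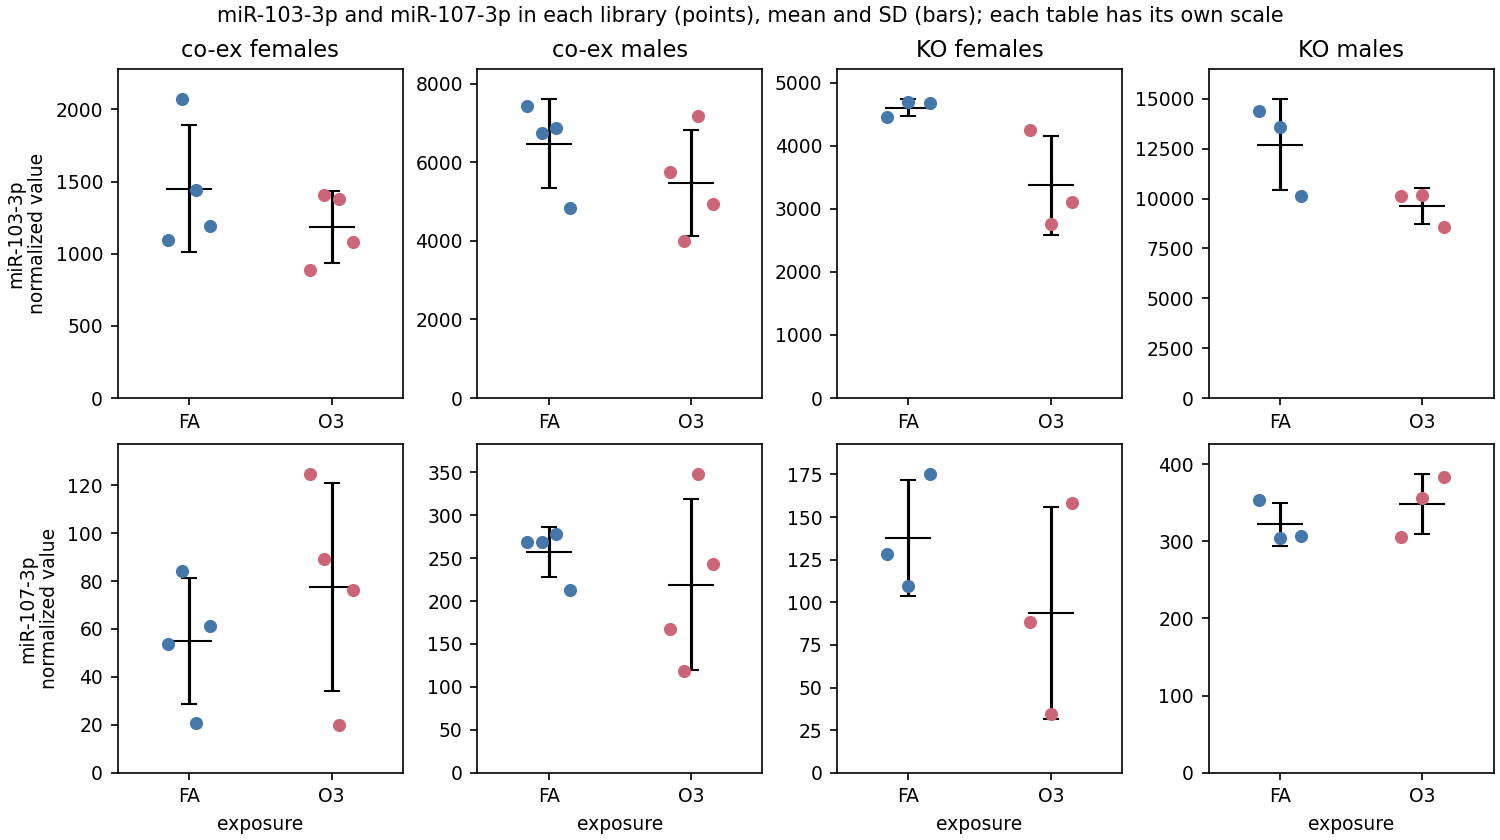
Normalized values (y axis, linear from 0) of miR-103-3p (upper row) and miR-107-3p (lower row) in each library (points), by exposure (x axis), with the mean and SD, for the 4 tables, each on its own scale. For miR-103-3p in KO females the O3 points, 2761 to 4251, lie below the FA points, 4451 to 4691, and in the other panels the exposures overlap.

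The summed reads of the pair do not depend on the split between them if each read was counted once, which is not stated. miR-103-3p made up 87.6% to 98.8% of the sum, so the sum was bound to follow it closely. The log2 difference of the sum was -0.22 (SE 0.36) and -0.26 (SE 0.33) in co-ex females and males, and -0.48 (SE 0.24) and -0.37 (SE 0.29) in KO females and males. The smallest limma adjusted p of these was 0.255, in KO females.

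miR-103-3p was lower after O3 on average in each of the 4 tables, and this mean difference did not pass the threshold. Averaged over the tables it was -0.35 (SE 0.14, 95% CI -0.64 to -0.05), with an unadjusted p of 0.0241 and a limma adjusted p of 0.113. Of the 230 miRNAs tested this way 20% passed, and their median difference was 0.08. The result lay near the threshold: leaving out each of the 28 libraries in turn gave adjusted p-values of 0.0533 to 0.223, and 6 of them were below 0.1. These were the values without co-ex FA female replicate 1 (0.0933) or 4 (0.0996), co-ex FA male replicate 4 (0.0824), co-ex O3 male replicate 3 (0.081), KO O3 female replicate 1 (0.0796) or KO FA male replicate 3 (0.0533). With libraries scaled to their totals the mean was -0.26 (adjusted p = 0.236). For miR-107-3p the mean was -0.15 (SE 0.29, 95% CI -0.75 to 0.44, adjusted p = 0.774), with signs that differed between tables.

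**Figure D2:**
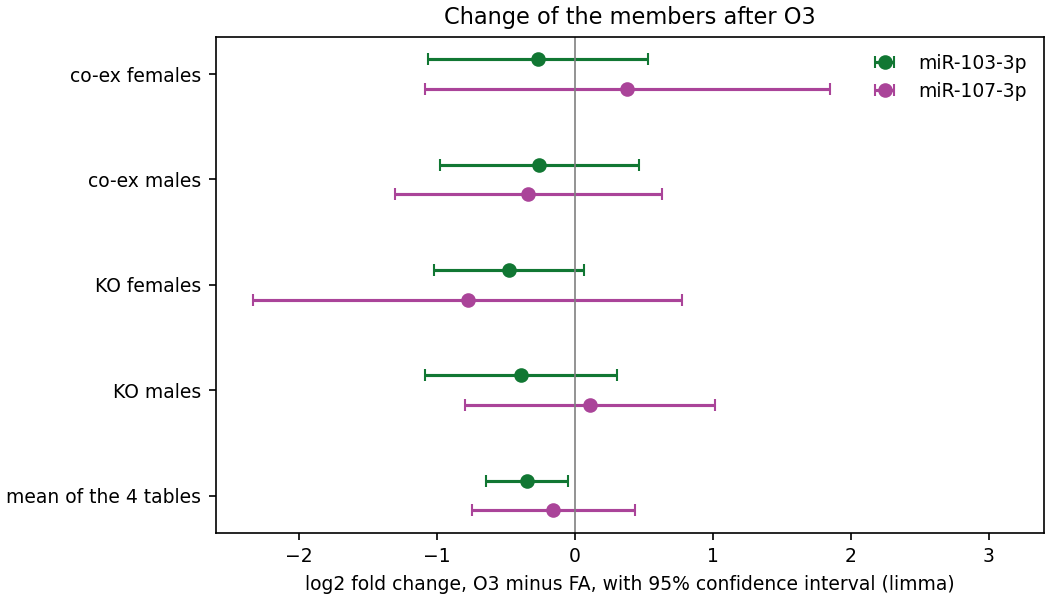
Log2 fold change of O3 minus FA (x axis) with its 95% confidence interval from limma, for miR-103-3p (green) and miR-107-3p (purple) in each table and as the mean of the 4. The intervals of the single tables all include 0, and the mean of miR-103-3p, -0.35, has an interval from -0.64 to -0.05 before adjustment.

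The response to O3 was then compared between sexes and genotypes. For miR-103-3p the difference in log2 change was 0.01 between co-ex males and co-ex females (95% CI -0.96 to 0.98, limma adjusted p = 0.991). It was 0.09 between KO males and KO females (95% CI -0.68 to 0.85, adjusted p = 0.951). Between genotypes it was 0.21 for co-ex minus KO females (95% CI -0.72 to 1.14, adjusted p = 0.847) and 0.13 for co-ex minus KO males (95% CI -0.78 to 1.04, adjusted p = 0.975). The intervals are wide, and each allows a difference in either direction.

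For miR-107-3p the corresponding differences were -0.72 (95% CI -2.42 to 0.99, adjusted p = 0.968) and 0.88 (95% CI -0.77 to 2.54, adjusted p = 0.878) between the sexes. Between genotypes they were 1.16 in females (95% CI -1.01 to 3.32, adjusted p = 0.609) and -0.45 in males (95% CI -1.69 to 0.80, adjusted p = 0.949). None passed by limma. The shares of all tested miRNAs that passed were 0% for the sexes in co-ex (8 of 249 at an unadjusted p under 0.05), 0% for the sexes in KO (17 of 309), 8.71% for the genotypes in females and 0% for the genotypes in males (6 of 305).

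miR-103-3p was higher in male than in female co-ex mice after FA, with a call that depended on single libraries. Because the tables were normalized separately, these levels are given in RPM, from the read counts recovered from the tables. After FA, miR-103-3p stood at 19312, 20315, 19977 and 18168 RPM in co-ex males and at 7118, 12246, 8832 and 8424 RPM in co-ex females. Every male library was above every female library, and the ratio of the means was 2.12. Such a separation was seen in 7.14% of 238 miRNAs. By edgeR's quasi-likelihood test with TMM scaling the male minus female log2 difference was 1.10 (adjusted p = 0.0816, 13.9% of miRNAs passed), and DESeq2 gave 1.17 (adjusted p = 0.023). Among the miRNAs that passed, edgeR had 4 higher and 29 lower in males, and DESeq2 18 and 38. The call was lost in 6 of 8 fits that left out 1 library, without male replicate 1 (adjusted p = 0.274), 2 (0.138) or 3 (0.101) or female replicate 1 (0.272), 3 (0.182) or 4 (0.257).

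miR-107-3p stood at 698, 807, 807 and 803 RPM in co-ex males after FA and at 351, 499, 128 and 434 RPM in co-ex females. Here too every male library was above every female library, with a ratio of the means of 2.21. The edgeR difference was 1.15 on the log2 scale and did not pass (adjusted p = 0.185), while DESeq2 gave 1.20 (adjusted p = 0.0822).

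After O3, miR-103-3p stood at 16294, 10886, 19250 and 15529 RPM in co-ex males and at 5296, 9062, 9404 and 6720 RPM in co-ex females. The male libraries were again all above the female libraries, as for 11.9% of 244 miRNAs. The edgeR difference was 1.22 (adjusted p = 0.115, 7.79% of miRNAs passed), and it passed without co-ex O3 male replicate 2 (adjusted p = 0.0461) and by DESeq2 (1.15, adjusted p = 0.0186). Both of these fits passed more miRNAs than the 19 of the main fit, with 71 in the fit without male replicate 2. For miR-107-3p the sexes overlapped after O3, with 323 to 933 RPM in males and 137 to 746 RPM in females, and the edgeR difference was 0.51 (adjusted p = 0.616).

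In an exact two-sided permutation test on log2 RPM, added after the values were seen, p was 0.0286 for miR-103-3p in co-ex after FA, for miR-107-3p in co-ex after FA and for miR-103-3p in co-ex after O3. This is the smallest p that 4 against 4 libraries can give, and after adjustment over the 8 tests of the pair it was 0.0762. Full separation had already been seen and fixes this p, so the test is no separate support.

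In KO mice the sexes overlapped for both miRNAs. miR-103-3p had means of 9099 ± 1899 RPM (SD, n = 3) in males and 8245 ± 649 RPM in females after FA. After O3 they were 8156 ± 996 and 6847 ± 1410 RPM. For miR-107-3p these means were 229 ± 19.6 and 249 ± 78.9 RPM after FA, and 294 ± 29.2 and 190 ± 126 RPM after O3. The edgeR differences of miR-103-3p were 0.25 after FA (adjusted p = 0.841) and 0.37 after O3 (adjusted p = 0.752), and those of miR-107-3p were 0.02 (adjusted p = 0.994) and 0.69 (adjusted p = 0.752). By edgeR 0% of 301 miRNAs passed after FA and 0% of 311 after O3, while 23 and 28 had an unadjusted p under 0.05, and DESeq2 gave 13 and 5. With 3 libraries a group, an exact test cannot give a p below 0.1.

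The library codes of co-ex males and co-ex females form separate runs, and those of KO mice are apart from both. Library series and sex in co-ex, and library series and genotype, therefore cannot be told apart. The myeloid list ran from 91774 to 159180 RPM in co-ex males and from 90665 to 172326 RPM in co-ex females after FA, and the epithelial list from 4956 to 29741 RPM and from 13024 to 32792 RPM. The red cell list separated the sexes after FA, at 993 to 4461 RPM in males and 12810 to 137372 RPM in females, and overlapped after O3, at 1038 to 17478 and 2929 to 4284 RPM. Their part in the sex difference was not tested.

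**Figure D3:**
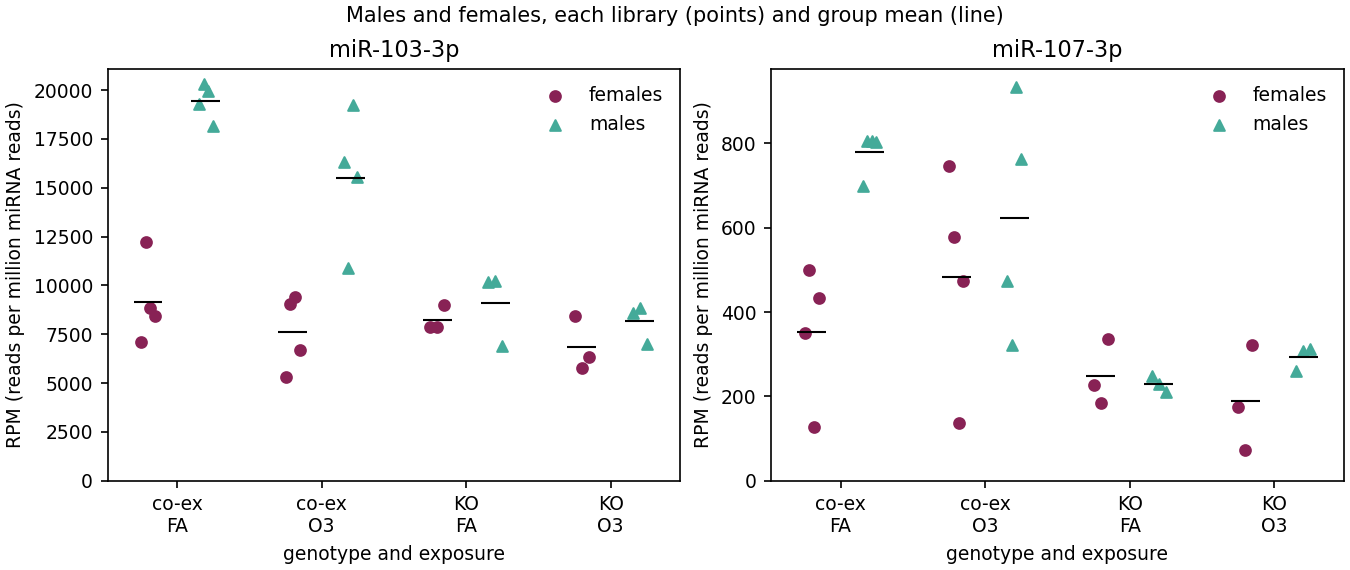
RPM (y axis, linear from 0) of miR-103-3p (left) and miR-107-3p (right) in females (circles) and males (triangles) by genotype and exposure (x axis), with lines at the group means. In co-ex after FA the male libraries, 18168 to 20315 for miR-103-3p, lie above the female libraries, 7118 to 12246, and in KO the sexes overlap.

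By mean RPM, miR-103-3p was ordered co-ex males after FA (19443 ± 947, n = 4), co-ex males after O3 (15490 ± 3463), co-ex females after FA (9155 ± 2186), KO males after FA, KO females after FA, KO males after O3, co-ex females after O3 (7620 ± 1956) and KO females after O3 (6847 ± 1410). Each group overlapped the next in this order, but not all groups overlapped. Co-ex males after FA (18168 to 20315 RPM) lay above every female and every KO library, of which the highest was 12246 RPM. Co-ex males after O3 (10886 to 19250 RPM) lay above every KO library (at most 10232 RPM). How many miRNAs separate co-ex males from KO in this way was not counted. For miR-107-3p the order began with co-ex males after FA (779 ± 53.8), co-ex males after O3 (623 ± 276), co-ex females after O3 (483 ± 257) and co-ex females after FA (353 ± 162). It ended with KO males after O3, KO females after FA, KO males after FA and KO females after O3 (190 ± 126). Here too neighbours overlapped. Co-ex males after FA (698 to 807 RPM) lay above co-ex females after FA (at most 499) and every KO library (at most 337). They overlapped co-ex females after O3 (up to 746).

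Reads were taken as the authors' counting assigned them, by a rule that is unknown for reads ending before base 22. On these counts, the balance within the pair was measured as the share of miR-107-3p in the reads of both. After FA it was 4.70%, 3.92%, 1.43% and 4.89% in co-ex females, and after O3 it was 12.4%, 5.99%, 1.43% and 6.57%. The highest share of all libraries, in co-ex O3 female replicate 1, rested on 31 of 251 reads (exact binomial 95% CI 8.55% to 17.1%), and that library was the shallowest of the 28. In KO males the share was 2.39%, 2.19% and 2.95% after FA and 2.94%, 3.37% and 4.27% after O3, so the exposures overlapped narrowly.

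In co-ex males the share ran from 3.49% to 4.23% after FA and from 2.82% to 4.68% after O3. In KO females it ran from 2.29% to 3.61% after FA and from 1.23% to 4.86% after O3. The O3 minus FA difference was 2.85 and -0.105 percentage points in co-ex females and males, and -0.192 and 1.01 in KO females and males. Exact two-sided permutation tests gave p = 0.286, 0.886, 0.9 and 0.2 in that order, or 0.571, 0.9, 0.9 and 0.571 after adjustment over the 4 tables. The design allows no p below 0.0286 in co-ex and 0.1 in KO. No change in this counted balance was detectable.

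**Figure D4:**
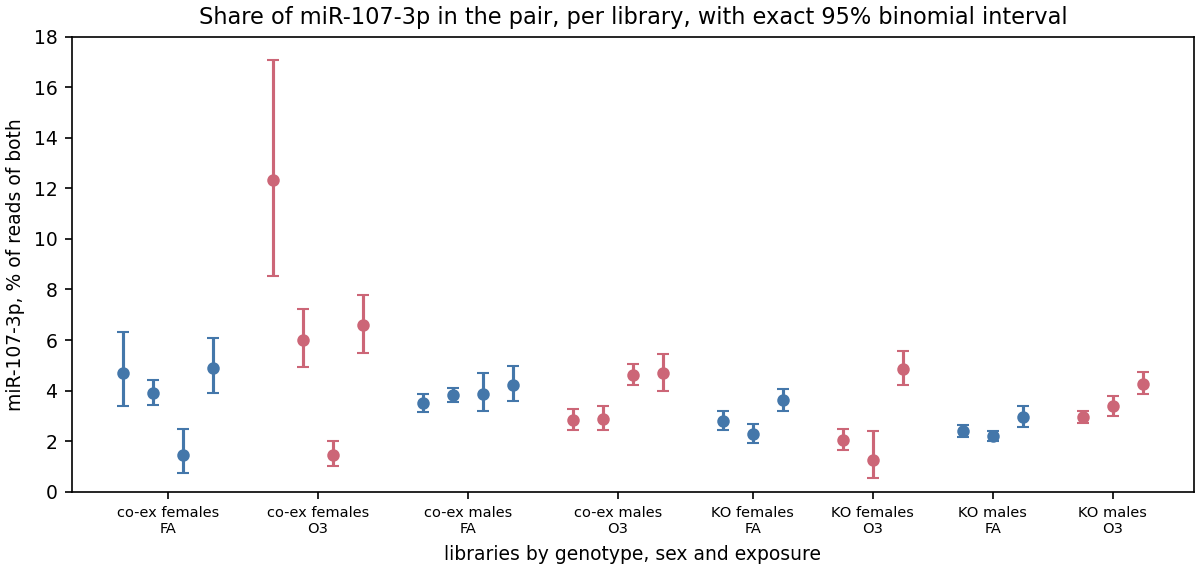
Share of miR-107-3p in the reads of both miRNAs, in percent (y axis), as the authors' counting assigned them. Each library is a point with its exact 95% binomial interval, by genotype, sex and exposure (x axis, FA blue, O3 red). Some replicates of 1 group lie farther apart than their intervals in every group but co-ex males after FA. The spread is widest in co-ex females after O3, where the share runs from 1.43% to 12.4%.

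Over all libraries the correlation within the pair was weak, and it differed in sign between tables. For the 28 libraries, with the log2 values centred within each table, Pearson's r between them was 0.19 (permutation p = 0.33) and Spearman's rho was 0.19 (permutation p = 0.344). Without the 2 libraries farthest from the median of miR-103-3p, r was 0.03. Within tables r was -0.25 in co-ex females (n = 8, exact permutation p = 0.523), 0.82 in co-ex males (n = 8, exact p = 0.0176), 0.59 in KO females (n = 6, exact p = 0.3) and -0.29 in KO males (n = 6, exact p = 0.517). The corresponding rho was -0.24 (exact p = 0.582), 0.86 (exact p = 0.0107), 0.43 (exact p = 0.419) and -0.31 (exact p = 0.564). After adjustment over the 4 tables the value in co-ex males had p = 0.0702 for r and 0.0429 for rho by exact permutation, and r was 0.58 there without the 2 farthest libraries. In the other tables r without them was -0.53, 0.68 and -0.75.

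Among the 229 other miRNAs tested in all tables, those most like miR-103-3p by r over the 28 centred libraries were miR-652-3p (r = 0.79, rho = 0.78), miR-532-3p (0.71, 0.74) and miR-223-3p (0.71, 0.67), the last a miRNA abundant in myeloid cells. Without the 2 farthest libraries these r values were 0.72, 0.65 and 0.60. The median r over all was 0.08, and miR-107-3p took place 89. Those most like miR-107-3p were miR-322-5p (r = 0.61, rho = 0.40), miR-1981-5p (0.54, 0.56) and miR-185-5p (0.49, 0.23), and miR-103-3p took place 21. The last of these, miR-185-5p, had r = 0.16 without the 2 farthest libraries. Chosen as the highest of many, these values are a description, and all points of a table share its normalization.

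Most names of the wider miR-15 and miR-107 group, known for targets in the cell cycle and apoptosis, share the bases AGCAGC with the pair (miR-497b does not), starting at base 1 in miR-103-3p and miR-107-3p and at base 2 in miR-16-5p and its relatives. Of its others, 3 are shown for that shift, with bases 2 to 8 in capitals.
miR-16-5p: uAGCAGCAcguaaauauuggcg
miR-15b-5p: uAGCAGCAcaucaugguuuaca
miR-322-5p: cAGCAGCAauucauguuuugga

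Of the 9 names of this group looked for (miR-15a-5p, miR-15b-5p, miR-16-5p, miR-195a-5p, miR-195b, miR-322-5p, miR-497a-5p, miR-497b and miR-503-5p), 6 were listed in each table and 7 in that of KO males. miR-16-5p was the most abundant, at 4838 to 25117 RPM, and miR-15b-5p ran from 182 to 4604 RPM. After O3, 0 of 6 tested passed limma in co-ex females, 0 of 5 in co-ex males, and 0 of 6 and 0 of 7 in the females and males of KO. The log2 differences were negative for 2 of 6, 3 of 5, 6 of 6 and 6 of 7 in that order. Their medians were 0.24, -0.03, -0.93 and -0.40, beside -0.16, 0.18, 0.06 and -0.04 for all miRNAs tested in the same tables.

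In KO females the group members with the most negative values were miR-322-5p (-2.67, SE 1.64, limma adjusted p = 0.391), miR-195a-5p (-1.93, SE 1.70, adjusted p = 0.564) and miR-15a-5p (-1.22, SE 0.53, adjusted p = 0.193), while miR-16-5p was at -0.14 (SE 0.26) and miR-15b-5p at -0.12 (SE 0.33). miR-322-5p and miR-195a-5p were at 0 in 1 or more of the KO female libraries, so their values depend on the pseudocount. As a mean over the 4 tables miR-16-5p was at 0.02 (SE 0.22, adjusted p = 0.971) and miR-15b-5p at -0.17 (SE 0.34, adjusted p = 0.779).

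**Figure D5:**
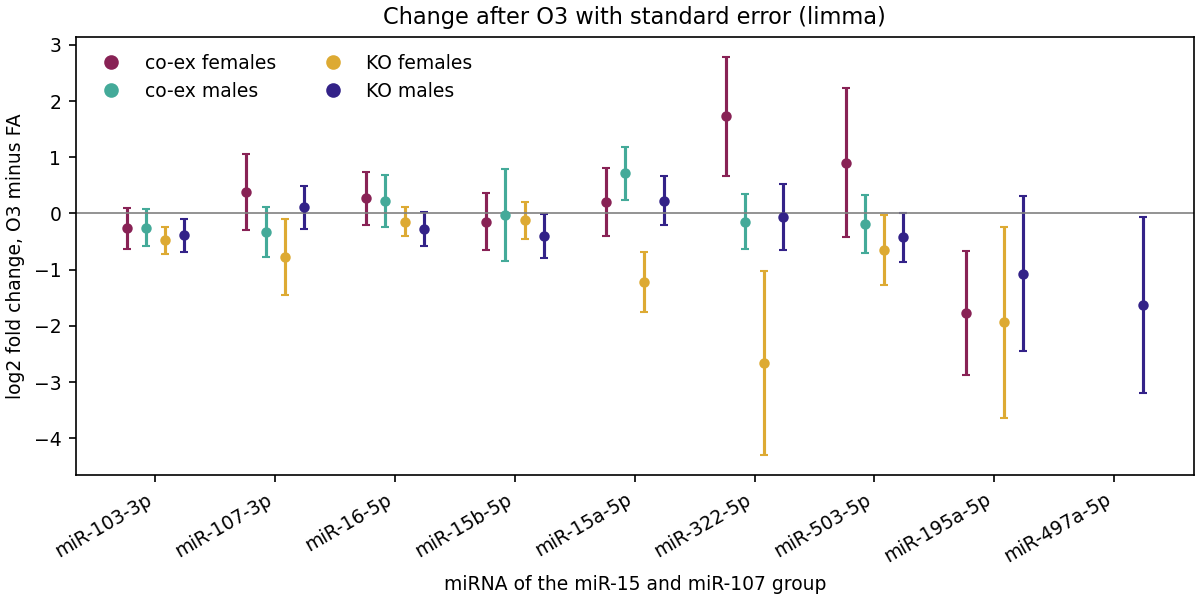
Log2 fold change of O3 minus FA (y axis) with its standard error from limma, for the miRNAs of the miR-15 and miR-107 group (x axis) in the 4 tables (colours). miR-103-3p lies below 0 in all 4 tables, from -0.47 to -0.26, and no miRNA of the group passed an adjusted p of 0.1 in any table.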

How the data were processed

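Small RNA of AM was sequenced in 28 libraries. Per the labels and the paper's methods, the authors filtered reads with CASAVA and the FASTX-Toolkit, removed adapters, counted miRNAs with Chimira, and tested with edgeR and TCC. The genome build is not given in the sources used here. The deposited library columns hold a normalized signal, the read count divided by the size factor of the library, in 4 tables normalized separately. The deposited tables also hold the authors' mean signal, log2 fold change, p-value and q-value for O3 against FA, and a score that ranks them. These columns were not used. The deposited tables are labelled DESeq2, a tool that the paper's methods do not name.

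All deposited values were whole multiples of 1 step per library (100% within 0.01), which gave the reads. O3 and FA were compared by limma 3.58.1 (R 4.3.3, trended prior) on log2(value + 1). A miRNA was kept if its value reached 5 in a number of libraries equal to the smaller group. The mean change and the differences in change came from limma on the same log2 values, with a model of the group means. The correlations used these log2 values centred by table. Males and females were compared by edgeR 4.0.16 (quasi-likelihood, TMM) on recovered reads. All used Benjamini-Hochberg adjustment and a threshold of 0.1. Shares, RPM and permutation tests used Python 3.11.15, numpy 2.4.6, scipy 1.17.1 and pandas 2.3.3, and figures matplotlib 3.10.9. Only the limma fit of O3 against FA within a table was tested on simulated data.

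Named miRNAs were the pair, its 5p strands, the miR-15 and miR-107 group, and the 3 most like each of the pair. The members and lists were chosen with earlier results of these data known. Mature and hairpin sequences are from RefSeq and introns from GENCODE M21. Alternatives were scaling to totals, no filter, a pseudocount of 0.1, edgeR and DESeq2 1.42.0, the replicate number as a block, the log2 ratio in place of the share, and each library left out. Equal replicate numbers denote different mice and were not taken as pairs.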

Additional observations from a re-analysis of the deposited data

Results flagged for a closer look

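Both results below concern miR-107-3p in co-ex males after FA, and each is a sample far from the other 3 of its group. By normalized value, replicate 4 was the lowest at 213.4, with the nearest of the others at 268.4. In RPM, replicate 1 was the lowest at 698.1, with the nearest at 803.1. The 2 scales thus single out different libraries. Of 20 groups tested 2 were marked, and chance marks about 1 in 20.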

How the results depend on the processing

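For 34 values of the pair, 88 alternatives that left out no library were run, and 81 kept direction and side of the threshold. With libraries scaled to their totals, 2 differences in the O3 change of miR-103-3p turned sign, to -0.082 (co-ex males minus co-ex females) and -0.21 (co-ex minus KO males), and the median of all miRNAs moved from 0.06 to 0.26 in KO females, from -0.04 to 0.20 in KO males and from 0.18 to 0.06 in co-ex males. The summed pair in KO males moved from -0.37 to -0.13. DESeq2 took past the threshold the male minus female difference in co-ex of miR-107-3p after FA (1.20) and of miR-103-3p after O3 (1.15). On log2 RPM with exact permutation, a choice made after seeing the data, these were 1.31 and 1.03. Their p of 0.0762 by that test was adjusted over the 8 tests of the pair, not over all miRNAs. It was counted here as past the threshold, but it followed from a separation already seen and is no separate support. On that scale miR-107-3p in KO after FA turned to -0.077. The causes were not tested.

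Leaving out 1 library gave 336 values, of which 300 kept direction and side. The ranges of the others were -0.41 to 0.21 and -1.27 to 0.55 percentage points for the share of miR-107-3p in co-ex males and KO females, and -0.017 to 0.93 for miR-107-3p after O3 in co-ex females. For miR-103-3p they were -0.39 to -0.30 for the mean O3 change, -0.18 to 0.15, -0.070 to 0.27 and -0.010 to 0.29 for its differences (co-ex sexes, KO sexes, males by genotype), and 0.99 to 1.35 after FA and 0.93 to 1.28 after O3 for males against females in co-ex. For miR-107-3p in KO after FA the sex difference ran from -0.12 to 0.10.

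The number of miRNAs that passed in KO males was 4, against 2 by edgeR, 15 by DESeq2 and 86 without FA replicate 3. In KO females it was 42, against 25 to 52 with 1 library left out. Co-ex against KO females had 21, against 32 with scaling to totals and 9 to 31 with 1 library left out. Males against females in co-ex had 33 after FA, against 56 by DESeq2 and 11 to 68 with 1 library left out, and 19 after O3, against 59 and 0 to 71.

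Same-numbered libraries had r over 0.1 in 3 of 14 pairs (range -0.28 to 0.23), and 13 of 28 libraries correlated best with their own number. Differently numbered libraries ranged wider, from -0.41 to 0.55. No expected number was worked out for either count, so they do not show pairing. With the replicate block, KO males had 1 miRNA past the threshold, and miR-103-3p in KO females stayed at -0.47 (adjusted p = 0.437). It changed no call of the pair for O3 against FA in the 4 tables or for the mean O3 change, and was not run for the other comparisons. Depth limits miR-107-3p most, with 8 reads in KO O3 female replicate 2 and 12 in co-ex FA female replicate 3.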
